A study of Homo sapiens with 12 samples.

Results

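The genes described here are MYC, its dimer partner MAX, the MAX-binding repressors MXD1, MXD4, MXI1 and MNT, and the Krüppel-like factors KLF4, KLF5, KLF6 and KLF10. They were taken from the count table by matching its Ensembl identifiers to these symbols, which gave 10 of the 61541 genes listed. No measured value entered the matching, but the symbols were chosen with earlier results of these data known. All 10 passed the filter on low counts, as did 16768 genes in all. RNA sequencing had been done on A549, an established line from a human lung adenocarcinoma, in 4 groups of 3 libraries taken 14 days after transduction. Control cells carried the non-targeting guide gNTC1, and in knockout cells Cas9 had been aimed at TYMS, whose product, thymidylate synthase, supplies thymidylate for DNA. Each kind of cell was grown alone or in co-culture, with no drug treatment in any group. According to the series text the knockout cells grew again beside parental A549 cells. The partner of the co-cultured control cells, any separation of partners before RNA isolation, and whether the 3 libraries of a group came from separate cultures were not given in the sources used here. The p-values below therefore measure the spread between these libraries, which may be technical.

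MYC is a transcription factor that binds DNA as a dimer with MAX, mostly at the E-box CACGTG, and drives ribosome production, metabolism and entry into the cell cycle. The MXD proteins, MXI1 and MNT also pair with MAX, occupy the same E-boxes and recruit corepressors. MXD1 is known for its induction when cells stop dividing and differentiate, and MNT for being present in dividing and resting cells alike. Krüppel-like factors are zinc-finger proteins that bind CACCC and GC-rich boxes. In epithelia KLF4 is associated with cell cycle arrest and terminal differentiation and KLF5 with proliferation, while KLF6 and KLF10 are early-response genes, the latter induced by TGF-beta.

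Promoter windows of 250 bases before a RefSeq start (GRCh38.p14) were found for 8 of the 10 genes, 12 windows in all. The hexamer CACGTG, a palindrome, stood once in each of the windows of MXD4, MNT, KLF4 and KLF6 and in none of those of MAX, MXD1, MXI1 and KLF5. It was present in 6.34% of the 35116 windows of all genes. CACCC on either strand was present in 54.7% of all windows and GGGCGG on either strand in 42.6%. The windows with the hexamer are shown because MAX dimers bind it, and that of MXD1 because this gene differed most between knockout and control. Each is limited to the stretch outside the gene's own GENCODE 29 exons and is read 5′ to 3′ along the gene's strand. Capitals mark these 3 motifs as found on either strand, so that CACCC also appears as its complement GGGTG; matches can touch or overlap.
MXD4, chr4:2262295-2262359, minus strand: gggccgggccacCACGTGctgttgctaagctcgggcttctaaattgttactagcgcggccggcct
MNT, chr17:2401119-2401310, minus strand: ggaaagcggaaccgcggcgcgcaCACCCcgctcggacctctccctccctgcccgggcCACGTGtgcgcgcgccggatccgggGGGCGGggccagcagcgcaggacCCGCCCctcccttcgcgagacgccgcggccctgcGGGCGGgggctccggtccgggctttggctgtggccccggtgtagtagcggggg
KLF4, chr9:107489770-107490019, minus strand: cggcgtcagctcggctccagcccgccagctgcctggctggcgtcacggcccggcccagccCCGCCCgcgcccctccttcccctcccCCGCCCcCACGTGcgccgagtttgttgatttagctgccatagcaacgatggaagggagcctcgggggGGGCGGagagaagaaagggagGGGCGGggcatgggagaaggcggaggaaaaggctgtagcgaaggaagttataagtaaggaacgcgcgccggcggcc
KLF6, chr10:3785282-3785459, minus strand: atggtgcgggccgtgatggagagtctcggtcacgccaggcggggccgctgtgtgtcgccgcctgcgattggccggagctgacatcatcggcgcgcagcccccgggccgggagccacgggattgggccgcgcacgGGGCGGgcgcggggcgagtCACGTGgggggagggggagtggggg
MXD1, chr2:69914859-69915040, plus strand: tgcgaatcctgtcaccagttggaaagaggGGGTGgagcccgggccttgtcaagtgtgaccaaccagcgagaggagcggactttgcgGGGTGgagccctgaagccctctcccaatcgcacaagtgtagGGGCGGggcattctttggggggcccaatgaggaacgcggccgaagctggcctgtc

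Read with the values below, the 4 genes whose window held the hexamer went different ways between knockout and control: MNT rose, KLF4 fell, and MXD4 and KLF6 were not called either way. MXD1, which rose most, had CACCC and GGGCGG matches but no CACGTG in its window. A match of this kind is a description of the letters only.

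Libraries held 14921371 to 35723762 counts, so 1 CPM, the count scaled to library size, stood for 14.9 counts in the shallowest library and 35.7 in the deepest before TMM scaling. Levels below are TMM-scaled CPM unless RPKM is named. TYMS was at 90.3 to 100.8 CPM in the 6 control libraries and at 10.71 to 21.36 in the 6 knockout libraries, lower in knockout as labelled. All 8 markers of A549 epithelium were detected in every group. Their summed level was 12900 to 18600 CPM in control and 16800 to 21200 CPM in knockout libraries, but single markers went opposite ways. EPCAM was at 94.4 to 119 CPM in control and 0.149 to 0.913 CPM in knockout libraries. From lone control to lone knockout cells mean KRT8 went from 7168 to 3726 CPM and KRT18 from 3056 to 2262. The means of KRT7 went from 1910 to 5952 CPM, AKR1B10 from 523.5 to 2387, ALDH1A1 from 1377 to 3524, AKR1C1 from 90.3 to 369.7 and NQO1 from 1106 to 1762. The A549 line is known for the loss of CDKN2A. After the values were seen, CDKN2A was found at 54.7 to 116 CPM in control libraries and at 0 to 0.119 in knockout libraries, and its neighbour MTAP at 43.8 to 79.5 against 0.302 to 0.647. A difference in cell origin between the libraries labelled control and knockout and the effect of the TYMS guide cannot be told apart in any comparison of these labels. Summed markers of fibroblasts, mainly COL1A1, were at 12.2 to 24.6 CPM, and those of leukocytes, alveolar type 2 and endothelial cells at 7.99 CPM or less, in all libraries. Within each group libraries also differed with the GC content of transcripts. The rank correlation of a library's deviation from its group mean with GC ran from -0.757 in co-cultured knockout replicate 3 to 0.736 in replicate 2 of that group.

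Between knockout and control cells grown alone, MYC, MXI1, KLF4 and KLF5 fell and MXD1 and MNT rose, so that 6 of the 10 genes passed the test (edgeR quasi-likelihood, Benjamini-Hochberg adjusted p under 0.05 over all genes). Of all genes tested 56.6% passed, 28% as higher and 28.6% as lower, so that the share of members called is near the background. The values of knockout and control libraries did not overlap for 8 of the 10 genes, against 65.2% of all genes. Their median log2 fold change was -0.12, beside 0.09 for all genes. Between the co-cultured groups the same 6 genes were called in the same directions, against 49.4% of all genes (24.1% higher, 25.3% lower), with values that did not overlap for 6 members and 55.4% of all genes. The members' median was -0.08, beside -0.02 for all genes. Co-culture itself called none of the 10 in knockout or in control cells.

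**Figure D1:**
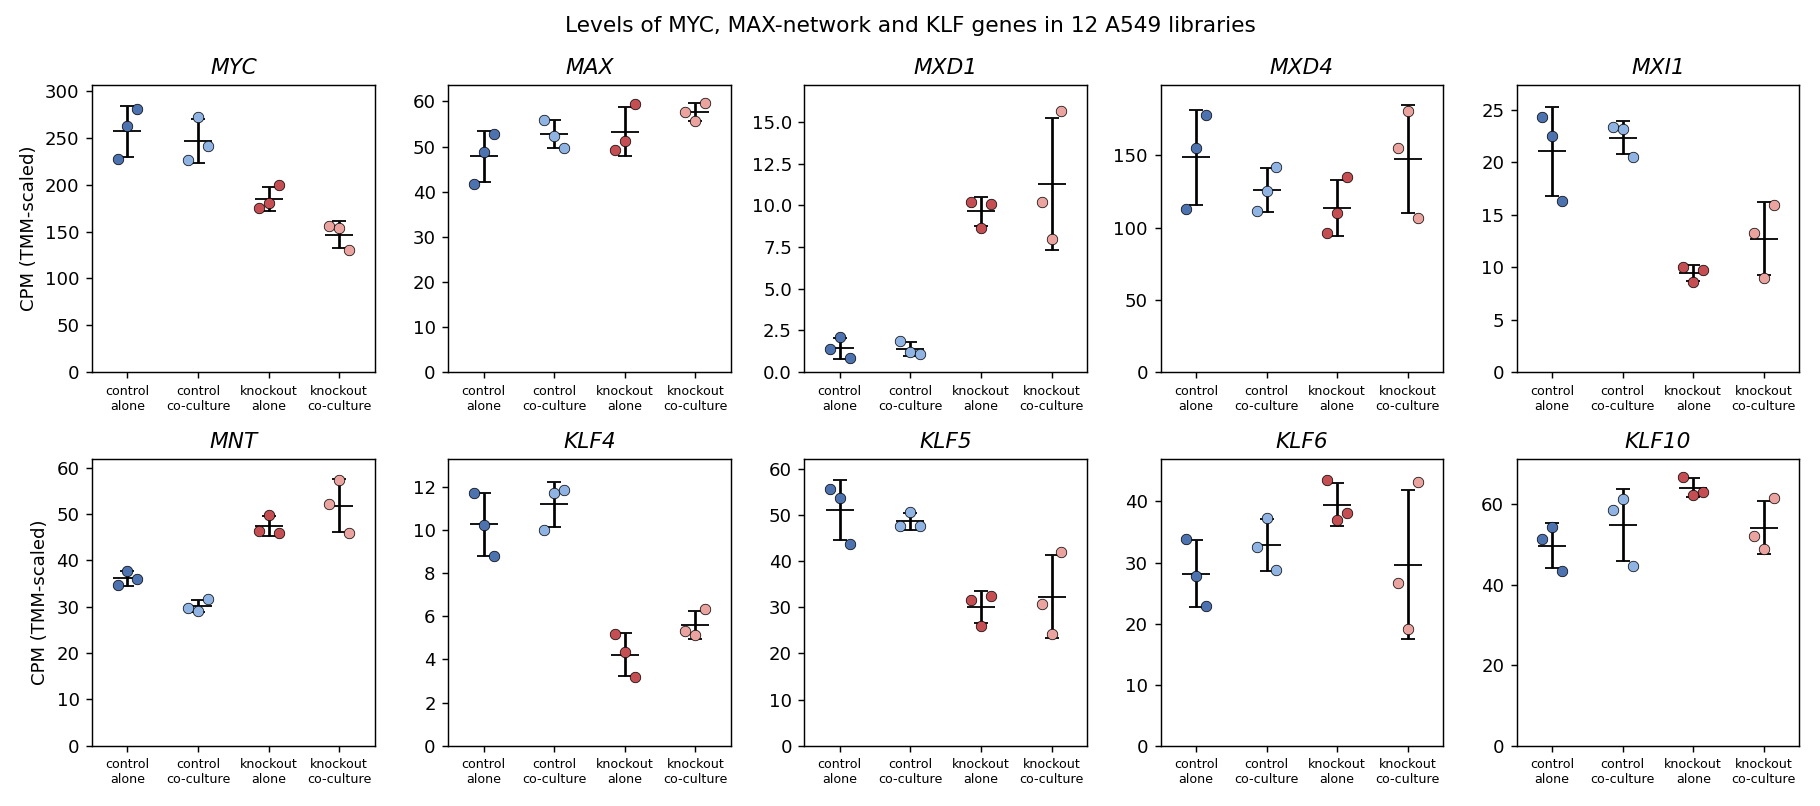
CPM (TMM-scaled, linear axis from 0) of the 10 genes in each library, by group; points are libraries, the bar is the mean and the whiskers the SD over 3 libraries. MXD1 lay between 0.82 and 2.09 CPM in control libraries and between 7.99 and 15.67 in knockout libraries, while MYC, MXI1, KLF4 and KLF5 lay lower in every knockout library than in every control library.

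Per length of merged exons, MYC was the most abundant of the 10 in every group, at a mean of 85.6, 82.2, 61.7 and 48.9 RPKM (CPM per kilobase of exon) in control cells grown alone and in co-culture and in knockout cells grown alone and in co-culture. MXD4 came next on this scale in all 4 groups, at 21, 17.9, 16.1 and 20.9 RPKM. In lone control cells KLF5 (13.1 RPKM), KLF10 (12.4) and MAX (10.8) followed, then KLF6 (4.59), MXI1 (4.57) and MNT (4.14), then KLF4 (2.8), with MXD1 last at 0.225 RPKM. In lone knockout cells KLF10 stood at 16 RPKM, level with MXD4, and MAX at 12, while KLF5 was at 7.71. MXD1 was at 1.52 RPKM and KLF4 was last at 1.15. Neighbours in the order of lone control cells overlapped in their libraries except at 5 steps: MYC over MXD4, MXD4 over KLF5, MAX over KLF6, MNT over KLF4 and KLF4 over MXD1. In lone knockout cells MXD1 and KLF4 overlapped, and in co-cultured knockout cells the only separate neighbours were MYC over MXD4 and MAX over KLF5.

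MYC (chromosome 8, 127735434 to 127741434, plus strand) was at 227.1, 262.9 and 280.9 CPM in the lone control libraries and at 175.1, 180.8 and 199.3 in the lone knockout libraries. All 3 knockout libraries lay below all 3 control libraries. The log2 fold change was -0.47 (SE 0.136, edgeR adjusted p = 0.0097), a 1.39-fold lower level. In co-culture the control libraries held 226.1, 272.8 and 241.3 CPM and the knockout libraries 155.8, 154.3 and 130.4, again without overlap. There MYC was 1.68-fold lower (log2 -0.75, SE 0.137, edgeR adjusted p = 0.000528). The lone difference was -0.24 once each library's GC trend was taken out by offsets (edgeR adjusted p = 0.0207). Here and below, these offsets were fitted on deviations from the mean of all 12 libraries, not of the group. They therefore also take out any difference between groups that follows GC content.

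Of the partner, MAX (chromosome 14, 65006174 to 65102695, minus strand), lone control libraries held 41.71, 48.91 and 52.9 CPM and lone knockout libraries 49.14, 51.29 and 59.51, which overlapped. The log2 difference was 0.16 (95% interval -0.12 to 0.43, edgeR adjusted p = 0.318) alone and 0.13 (-0.15 to 0.41, adjusted p = 0.425) in co-culture. With library size alone as scaling it passed the test between lone cells (log2 0.32, edgeR adjusted p = 0.0344). MAX exons share 184 bases with an antisense gene, and the strand setting of the counting was not given.

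MXD1 (chromosome 2, 69897688 to 69942945, plus strand) was the member that differed most. Lone control libraries held 1.363, 2.094 and 0.8198 CPM and lone knockout libraries 10.2, 8.664 and 10.1. Every knockout library was above every control library, with a fold of 6.79 (log2 2.76, SE 0.358, edgeR adjusted p = 3.16e-05). In co-culture the control libraries were at 1.841, 1.186 and 1.101 CPM and the knockout libraries at 10.22, 7.992 and 15.67, of which replicate 3 was the highest of all 12 libraries. The fold was 8.29 (log2 3.05, SE 0.355, edgeR adjusted p = 1.36e-05). The gene shares 237 exon bases with SNRNP27 on the same strand, so reads there could be divided or left out.

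MNT (chromosome 17, 2384060 to 2401118, minus strand) was at 34.71, 37.82 and 35.96 CPM in lone control and at 46.35, 49.89 and 46 in lone knockout libraries, without overlap. It rose 1.31-fold alone (log2 0.39, SE 0.123, edgeR adjusted p = 0.0155). In co-culture control libraries held 29.8, 29.12 and 31.63 CPM and knockout libraries 52.09, 57.43 and 45.9, a 1.72-fold rise (log2 0.78, SE 0.123, edgeR adjusted p = 0.000166). The call between lone cells was lost with DESeq2 size factors (edgeR adjusted p = 0.0717), with DESeq2 (0.0599), without the low-count filter (0.188), without lone control replicate 3 (0.0515) and without lone knockout replicate 2 (0.0654). With GC offsets the lone difference was 1.07 on the log2 scale (edgeR adjusted p = 1.25e-05). MNT has the highest transcript GC content of the 10, at 61.4%, and shares 1065 exon bases with an antisense gene.

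MXI1, a repressor of the same family (chromosome 10, 110207605 to 110287365, plus strand), went the other way from MXD1 and MNT. It was at 24.29, 22.54 and 16.29 CPM in lone control and at 10.03, 8.564 and 9.736 in lone knockout libraries. The groups did not overlap and the level fell 2.23-fold (log2 -1.16, SE 0.221, edgeR adjusted p = 0.000709). Co-cultured libraries held 23.33, 23.19 and 20.55 CPM in control and 13.28, 8.976 and 15.9 in knockout libraries, 1.76-fold lower (log2 -0.82, SE 0.217, edgeR adjusted p = 0.00728). It shares 205 exon bases with an antisense gene.

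MXD4 (chromosome 4, 2247432 to 2262294, minus strand), the most abundant of the repressors per length, was at 112.7, 155 and 177.7 CPM in lone control and 96.13, 110.3 and 134.7 in lone knockout libraries. The groups overlapped (log2 -0.39, 95% interval -0.85 to 0.08, edgeR adjusted p = 0.143). Without lone control replicate 1 the test was passed (log2 -0.56, adjusted p = 0.0434). In co-culture control libraries held 111.4, 125 and 141.9 CPM and knockout libraries 155, 180.3 and 106.7 (log2 0.22, interval -0.24 to 0.69, adjusted p = 0.41). In all 4 groups the order of the 3 libraries was the order of their GC trends. With GC offsets the log2 difference was 0.08 alone (edgeR adjusted p = 0.488) and 0.36 in co-culture, where it passed the test (adjusted p = 0.00329).

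**Figure D2:**
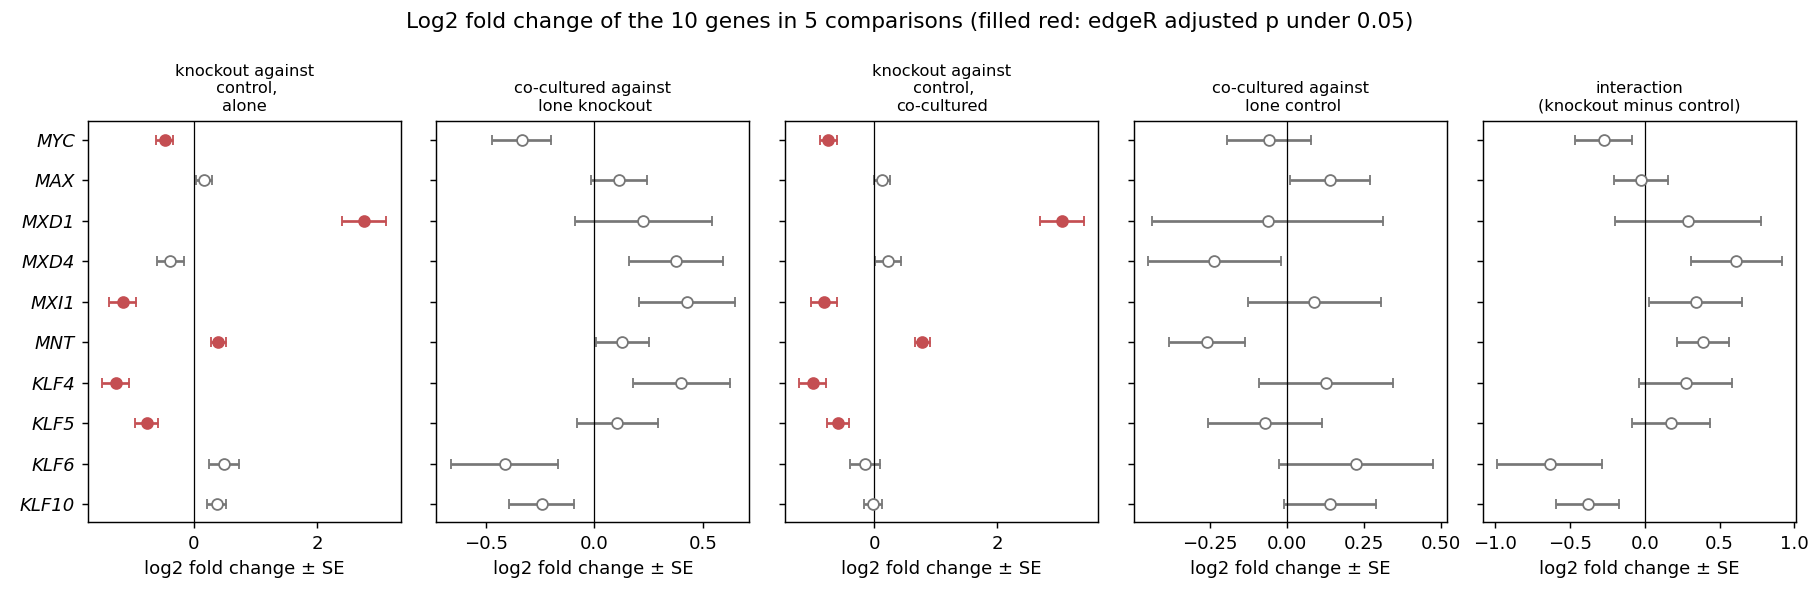
Log2 fold change with its SE for the 10 genes in each comparison; the horizontal scale differs between panels, and filled red points have an edgeR adjusted p under 0.05. Filled points appear for MYC, MXD1, MXI1, MNT, KLF4 and KLF5 in both comparisons of knockout with control and in no other panel.

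KLF4 (chromosome 9, 107484852 to 107490482, minus strand) was at 11.71, 10.22 and 8.799 CPM in lone control and 5.164, 4.332 and 3.164 in lone knockout libraries. Each knockout library was below each control library, and the level fell 2.41-fold (log2 -1.27, SE 0.224, edgeR adjusted p = 0.000355). Co-cultured control libraries held 9.974, 11.71 and 11.82 CPM and co-cultured knockout libraries 5.303, 5.129 and 6.344, 2-fold lower (log2 -0.999, SE 0.218, edgeR adjusted p = 0.00198).

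KLF5 (chromosome 13, 73054976 to 73077542, plus strand) was at 55.72, 53.77 and 43.67 CPM in lone control and at 31.62, 26.04 and 32.37 in lone knockout libraries. The groups did not overlap, and it fell 1.7-fold (log2 -0.77, SE 0.187, edgeR adjusted p = 0.00365). In co-culture control libraries held 47.62, 50.63 and 47.53 CPM and knockout libraries 30.61, 24.27 and 41.94, 1.51-fold lower (log2 -0.59, SE 0.185, edgeR adjusted p = 0.0177). With library size alone as scaling neither call held (adjusted p = 0.0522 alone and 0.101 in co-culture). The co-cultured call was also lost without co-cultured control replicate 2 (adjusted p = 0.053) or without co-cultured knockout replicate 1 (0.0572) or 2 (0.0548). With GC offsets both calls held, at log2 -0.999 alone (edgeR adjusted p = 1.07e-05) and -0.628 in co-culture (0.000633).

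KLF6 (chromosome 10, 3775996 to 3785281, minus strand) was not called in either comparison of knockout with control. Its lone values were 33.9, 27.72 and 22.95 CPM in control and 43.47, 36.9 and 38.09 in knockout libraries, without overlap (log2 0.49, 95% interval -0.05 to 1.03, edgeR adjusted p = 0.112). This lone difference passed the test when the lone groups were fitted alone (log2 0.48, adjusted p = 0.0344) and without co-cultured knockout replicate 3 (0.49, 0.0263). With GC offsets it was 0.195 (edgeR adjusted p = 0.299). In co-culture control libraries held 32.54, 37.35 and 28.74 CPM and knockout libraries 26.69, 19.2 and 43.14, a spread wider than that of any other group of this gene. The log2 difference there was -0.15 (interval -0.69 to 0.39, adjusted p = 0.645), and -0.52 without co-cultured knockout replicate 3, where it passed the test (adjusted p = 0.0398).

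KLF10 (chromosome 8, 102648779 to 102655902, minus strand) was at 51.5, 54.33 and 43.5 CPM in lone control and 66.8, 62.39 and 63.16 in lone knockout libraries, without overlap. It missed the threshold (log2 0.37, SE 0.15, edgeR adjusted p = 0.0528), and passed it without co-cultured control replicate 3 (0.34, 0.0495) or co-cultured knockout replicate 3 (0.36, 0.0386). With GC offsets the lone difference was 0.144 (edgeR adjusted p = 0.198). In co-culture control libraries held 58.66, 61.23 and 44.64 CPM and knockout libraries 52.13, 48.96 and 61.57 (log2 -0.02, 95% interval -0.34 to 0.31, edgeR adjusted p = 0.938). An exact permutation test of these 3 against 3 libraries cannot go below p = 0.1, which is what it gave for every member whose groups did not overlap.

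Of the co-culture differences in knockout cells, where 11.4% of all genes were called (5.97% higher, 5.4% lower), none of the 10 members passed. MYC was at 175.1 to 199.3 CPM alone and at 130.4 to 155.8 in co-culture, so that the groups did not overlap (log2 -0.33, SE 0.136, edgeR adjusted p = 0.122). KLF10 was likewise lower without overlap, at 62.39 to 66.8 CPM alone and 48.96 to 61.57 in co-culture (log2 -0.24, edgeR adjusted p = 0.292). No overlap was found for 31.5% of all genes. The remaining log2 differences were 0.43 for MXI1, 0.40 for KLF4, 0.37 for MXD4, 0.23 for MXD1, 0.13 for MNT, 0.11 for MAX, 0.10 for KLF5 and -0.41 for KLF6, with adjusted p-values of 0.207 to 0.733. The call count was 0 with TMM scaling and 3 with GC offsets, which called MYC at -0.50 (edgeR adjusted p = 0.000673), MXI1 at 0.76 (0.000701) and MXD1 at 0.60 (0.0314). It was 2 without co-cultured knockout replicate 3, where KLF6 was at -0.78 (edgeR adjusted p = 0.00806) and MXD4 at 0.56 (0.0394), and 1 with library size alone, where MYC was at -0.39 (0.0224). Over all genes the calls numbered 1907 with TMM scaling, 4879 with GC offsets, 5680 without that replicate and 1420 with library size alone.

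In control cells co-culture called 0 of all genes tested with edgeR (540 had an unadjusted p under 0.05) and 0 with DESeq2, and so 0% and none of the 10. The log2 differences of the members ran from -0.26 for MNT to 0.22 for KLF6. MNT was the member whose groups did not overlap, at 34.71 to 37.82 CPM alone and 29.12 to 31.63 in co-culture (edgeR unadjusted p = 0.0539), where 7.39% of all genes showed no overlap. For the interaction, the co-culture difference in knockout minus that in control cells, 1.8% of all genes passed and none of the 10. The largest members' values were 0.61 for MXD4 (SE 0.304), 0.39 for MNT (0.173) and 0.34 for MXI1 (0.308) on one side and -0.64 for KLF6 (0.352), -0.38 for KLF10 (0.212) and -0.28 for MYC (0.192) on the other, with edgeR adjusted p-values of 0.255 to 0.533. With GC offsets the interaction passed for MYC (-0.45, edgeR adjusted p = 0.0293) and MXI1 (0.78, 0.0153), and without co-cultured knockout replicate 3 for KLF6 (-1.004, 0.0174) and MXD4 (0.80, 0.0447). Over all genes the interaction calls numbered 301 in the main fit, 1420 with GC offsets and 3623 without that replicate.

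**Figure D3:**
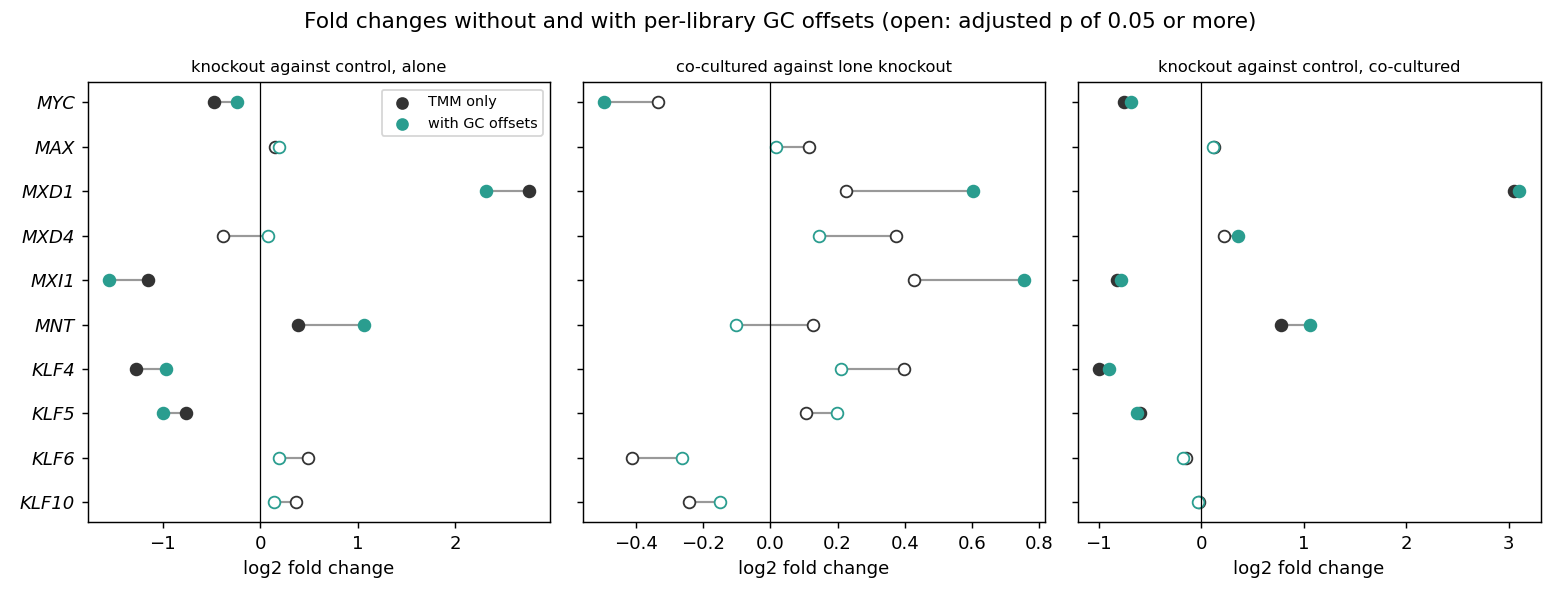
Log2 fold change of each member with TMM scaling (black) and after per-library offsets fitted on transcript GC content (green), in 3 comparisons; filled points have an edgeR adjusted p under 0.05. MNT moved from 0.39 to 1.07 between lone cells and MYC from -0.33 to -0.50 between co-cultured and lone knockout cells.

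Of the other genes of the MAX network, MYCL, MXD3, MGA, MLX, MLXIP and MLXIPL passed the filter and MYCN did not. Between lone knockout and control cells 3 fell, 1 rose and 2 were not called (median log2 fold change -1.30, beside 0.09 for all genes). Of all genes 28.6% fell and 28% rose. MYCL, a MYC paralog, went from 14.5 ± 3.59 to 1.73 ± 0.389 CPM (SD, n = 3; log2 -3.05, edgeR adjusted p = 7.3e-07). MXD3, the remaining MXD repressor, went from 51 ± 13.2 to 10.3 ± 1.83 CPM (log2 -2.31, edgeR adjusted p = 8.04e-06). MLXIPL, the glucose-responsive factor ChREBP, went from 19.6 ± 2.02 to 0.711 ± 0.122 CPM (log2 -4.79, edgeR adjusted p = 2.65e-08). Its paralog MLXIP (MondoA) rose from 86.9 ± 5.26 to 164 ± 8.29 CPM (log2 0.92, edgeR adjusted p = 3.3e-05). MGA, a MAX partner of the polycomb-type repressor complex, stood at 0.46 and MLX, the partner of MLXIP and MLXIPL, at -0.30 on the log2 scale, neither called. In co-culture the same 4 genes were called the same way, with log2 values of -2.29 for MYCL, -1.07 for MXD3, -4.20 for MLXIPL and 0.70 for MLXIP (median of the 6 -0.89, beside -0.02). There 49.4% of all genes were called. With GC offsets the lone value was -1.62 for MXD3 and -4 for MLXIPL, both still called. Between co-cultured and lone knockout cells none of the 6 was called, beside 11.4% of all genes, while other settings called up to 1 higher and 2 lower. With GC offsets these were MXD3 at 0.44 (edgeR adjusted p = 0.0119), MGA at -1 (0.00649) and MLXIP at -0.41 (0.018), and without co-cultured knockout replicate 3 they were MXD3 at 0.88 (0.00972) and MGA at -2.13 (0.000517). Over all genes the calls were 2463 higher and 2416 lower with GC offsets, and 2077 and 3603 without that replicate.

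Of 14 other KLF genes 10 passed the filter. Between lone knockout and control cells 3 rose, 4 fell and 3 were not called (median -0.03, beside 0.09 for all genes). With library size alone as scaling these medians were 0.11 and 0.24. Of all genes 28% rose and 28.6% fell. KLF7 rose from 8.88 ± 1.66 to 47.8 ± 6.32 CPM (SD, n = 3; log2 2.43, edgeR adjusted p = 5.68e-06), KLF11, a relative of KLF10, by 1.02 on the log2 scale (0.00304) and KLF9 by 0.90 (0.0308). KLF2, best known from endothelium and lymphocytes, fell from 76.9 ± 18.1 to 7.49 ± 2.59 CPM (log2 -3.37, edgeR adjusted p = 1.45e-06) and KLF16 from 160 ± 32.2 to 52.2 ± 17.3 CPM (log2 -1.62, adjusted p = 0.000249). KLF15 and KLF14 had 3 counts or fewer in each lone knockout library. Against a floor of 3 counts per library, their mean levels in control were at least 24.7-fold and 4.85-fold higher. These bounds leave out counting error, and the fit gave KLF14 a log2 value of -2.61 (SE 0.533). KLF3, KLF12 and KLF13 stood at -0.09, 0.70 and 0.03. With GC offsets 4 were higher and 5 lower, since KLF3 (-0.58, edgeR adjusted p = 0.000887) and KLF13 (0.47, 0.00591) passed, and the values were -2.50 for KLF2 and -0.64 for KLF16, both still called. In co-culture 2 were called higher (KLF7 at 1.35 and KLF9 at 0.93) and 4 lower (KLF2 at -2.71, KLF14 at -1.66, KLF15 at -3.84 and KLF16 at -1.26), with KLF11 at 0.56 (edgeR adjusted p = 0.0697). Of all genes 24.1% were higher and 25.3% lower there. KLF7 was also the one of the 10 called between co-cultured and lone knockout cells, where it fell from 47.8 ± 6.32 to 23.3 ± 9.34 CPM (log2 -1.04, edgeR adjusted p = 0.0193, and up to 0.112 over the settings). Calls in that comparison ran from 0 lower with library size alone to 3 lower without co-cultured knockout replicate 3, which added KLF3 (-0.90, 0.0138) and KLF12 (-2.18, 0.0017). Lower calls over all genes numbered 906 in the main fit, 431 with library size alone and 3603 without that replicate. With GC offsets KLF12 was called beside KLF7 (-1, edgeR adjusted p = 0.00868). Over 21 settings the highest adjusted p was 0.108 for KLF9 alone, 0.117 for KLF9 in co-culture and 0.0513 for KLF14 in co-culture, past the threshold. Without co-cultured knockout replicate 3 the co-cultured groups gave 1 higher and 6 lower calls, beside 3878 and 5014 over all genes.

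**Figure D4:**
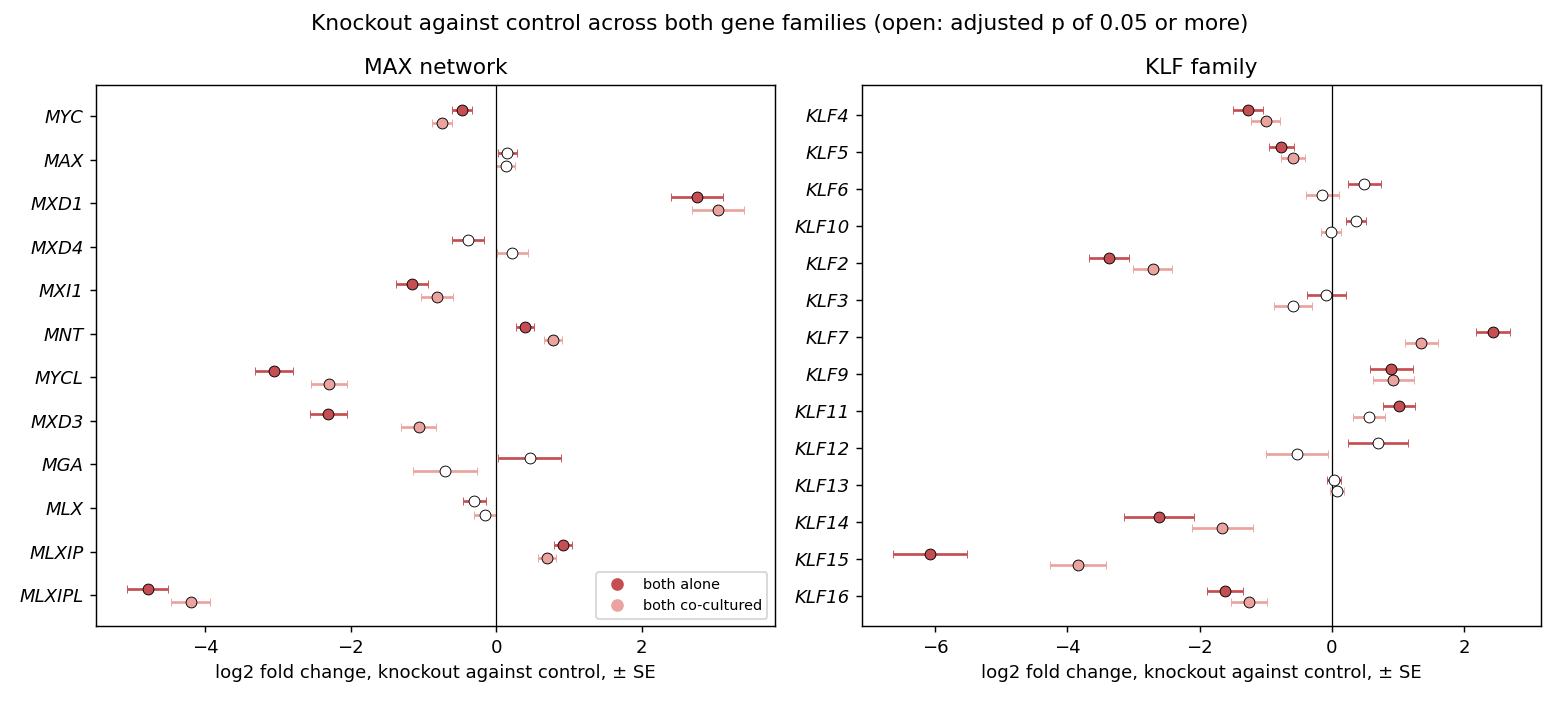
Log2 fold change with its SE, knockout against control, for the MAX network (left) and the KLF family (right), in cells grown alone (dark) and co-cultured (light); open points have an edgeR adjusted p of 0.05 or more. KLF15 and KLF14 are fitted values for genes at the floor of detection in lone knockout cells and are no bounds. Members of either family lie on both sides of 0.

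Among 30 genes that MYC is known to activate, most of them for ribosome production, 6 were called higher and 9 lower between lone knockout and control cells, where 28% and 28.6% of all genes were. With GC offsets 10 were higher and 8 lower, and without lone control replicate 3 the higher calls numbered 3. Their median log2 fold change was 0.04 (-0.01 with DESeq2 size factors and -0.09 with GC offsets), beside 0.09 for all genes. NOLC1, a nucleolar phosphoprotein, rose from 102 ± 13.7 to 207 ± 17.3 CPM (SD, n = 3; log2 1.03, edgeR adjusted p = 0.000289). EIF4A1, a translation initiation helicase, rose from 2.57 ± 0.731 to 6.22 ± 1.7 CPM (log2 1.28, adjusted p = 0.00245). Its exons are shared with a read-through transcript from SENP3, so that its count is uncertain. SHMT2, the mitochondrial serine hydroxymethyltransferase, fell from 508 ± 134 to 197 ± 38.7 CPM (log2 -1.37, edgeR adjusted p = 0.000288) and BOP1, a factor of ribosomal RNA processing, from 814 ± 208 to 305 ± 68.8 CPM (log2 -1.42, adjusted p = 0.00063, and -0.53 with GC offsets, still called). Between the co-cultured groups 1 gene (EIF4A1, adjusted p up to 0.124 over the settings) was called higher and 12 lower, with a median of -0.42 beside -0.02. Of all genes 24.1% were higher and 25.3% lower there. Between co-cultured and lone knockout cells, where 5.97% of all genes were called higher and 5.4% lower, 0 were called higher and 5 lower. These were NCL, DKC1, POLR1B, NOLC1 and UTP20, with log2 values from -2.003 for UTP20 to -0.63 for POLR1B. The median of the 30 was -0.13, and it ran from -0.25 with GC offsets to 0.002 with no filter, with -0.01 without co-cultured knockout replicate 3. NOLC1 was the one of the 30 that passed for the interaction (log2 -1.08, edgeR adjusted p = 0.0449, up to 0.147 over the settings). Interaction calls among the 30 numbered 0 with library size alone, 9 with GC offsets and 11 without co-cultured knockout replicate 3, each of them lower. Lower interaction calls over all genes numbered 47, 592 and 2422 in these settings, against 48 in the main fit. Between co-cultured and lone knockout cells UTP20 was called under all 21 settings (-2.60 without co-cultured knockout replicate 3), while NCL, DKC1, POLR1B and NOLC1 each missed the threshold under at least 1 (highest adjusted p 0.0686 to 0.108). Lower calls in this comparison numbered 1 of 30 from the compared groups alone, 15 with GC offsets and 11 without co-cultured knockout replicate 3. Over all genes they numbered 189, 2416 and 3603, against 906 in the main fit.

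Of 8 genes that MYC is known to repress, 3 rose and 5 fell between lone knockout and control cells (median log2 fold change -1.31, beside 0.09 for all genes), and 3 and 3 were called between the co-cultured groups (median -0.30, beside -0.02). Of all genes 28% rose and 28.6% fell between lone cells, and 24.1% and 25.3% between the co-cultured groups. With GC offsets the co-cultured groups gave 3 and 4 calls (median -0.11). CDKN1A, the cyclin-dependent kinase inhibitor p21, rose from 214 ± 41.4 to 1131 ± 164 CPM alone (log2 2.40, edgeR adjusted p = 8.66e-07). It was also called between co-cultured and lone knockout cells, at 2519 ± 537 CPM in co-culture (SD, n = 3; log2 1.16, edgeR adjusted p = 0.00366), and for the interaction (log2 1.26, adjusted p = 0.0402, up to 0.13 over the settings). For the interaction 5 of the 8 were called higher and 1 lower with GC offsets, 6 and 1 without co-cultured knockout replicate 3, and 0 higher with a replicate block. Over all genes these settings called 828 higher and 592 lower, 1201 and 2422, and 163 higher, against 253 and 48 in the main fit. THBS1, a secreted matrix protein, rose from 23.4 ± 4.2 to 121 ± 13.2 CPM alone (log2 2.38, edgeR adjusted p = 1.37e-06) and was lower in co-cultured than in lone knockout cells (log2 -1.17, adjusted p = 0.0041). NDRG2 fell from 31.7 ± 7.39 to 4.95 ± 0.478 CPM (log2 -2.68, edgeR adjusted p = 3e-07). CDKN2B, which neighbours CDKN2A, had 0 counts in all 6 knockout libraries and was at least 11.7-fold lower alone and 20.8-fold lower in co-culture, with the floor at 3 counts per library. Between co-cultured and lone knockout cells 4 of the 8 (CDKN1A, CDKN1B, GADD45A and NDRG2) were higher and THBS1 lower (median 0.72, beside 0.01 for all genes), with 2 higher from the compared groups alone and 6 with GC offsets. Of all genes 1001 (5.97%) were higher and 5.4% lower there, with 475 higher from the compared groups alone and 2463 with GC offsets. Over 21 settings the adjusted p of this comparison reached 0.073 for CDKN1B and 0.161 for NDRG2.

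Of 16 genes of epithelial differentiation 9 passed the filter. Between lone knockout and control cells 1 rose and 6 fell (median log2 fold change -1), and between the co-cultured groups 1 and 3 (median -0.39). Of all genes 28% rose and 28.6% fell in the first and 24.1% and 25.3% in the second. With GC offsets the lone groups gave 2 higher and 4 lower calls (median -0.63) and the co-cultured groups 2 and 3 (median -0.14). IVL, which encodes the cornified envelope protein involucrin, had 1 count or less in each lone control library. Its means in lone and co-cultured knockout cells were 0.703 and 1.359 CPM. These were at least 3.95-fold and 9.82-fold above a floor of 3 counts per control library. PPL, the plakin periplakin, fell from 112 ± 14.8 to 11.4 ± 0.631 CPM (SD, n = 3; log2 -3.30, edgeR adjusted p = 3.73e-09). KRT13, a keratin of stratified epithelium, was at least 10.1-fold lower alone and 11.5-fold lower in co-culture, with a floor of 3 counts per knockout library. Between co-cultured and lone knockout cells, where 11.4% of all genes were called, KRT15 was the one of the 9 called (log2 1.53, edgeR adjusted p = 0.00274). Calls there numbered 2 higher with library size alone or without co-cultured knockout replicate 3, and 2 higher and 2 lower with GC offsets. Over all genes 989 and 2077 were called higher in the former fits, and 2463 higher and 2416 lower with GC offsets. EVPL, which was called lower between lone cells (-0.47, edgeR adjusted p = 0.0287), was at 0.40 with GC offsets (adjusted p = 0.00253).

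**Figure D5:**
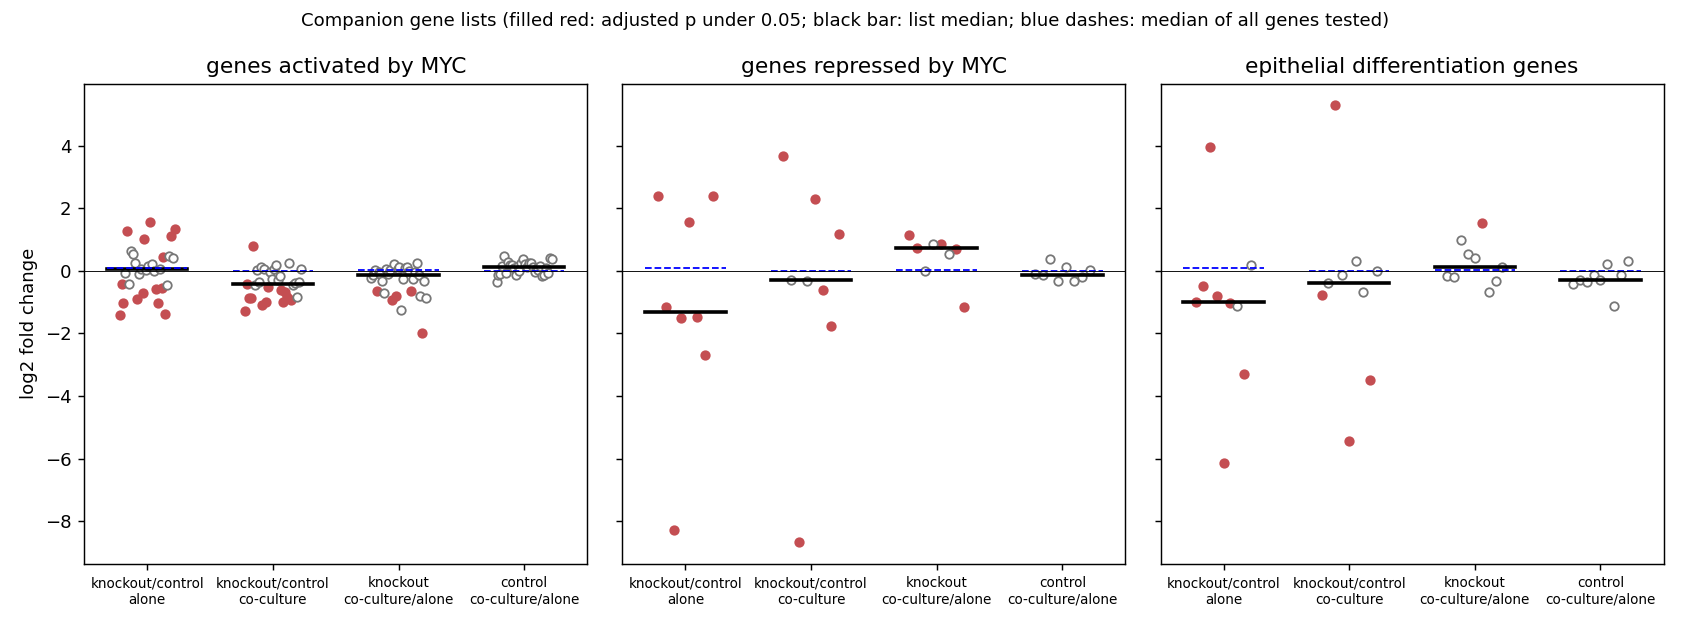
Log2 fold change of each tested gene of 3 companion lists in 4 comparisons; filled red points have an edgeR adjusted p under 0.05, the black bar is the list's median and the blue dashes the median of all genes tested. The list of MYC-activated genes has its median at 0.04 between lone cells and at -0.42 between co-cultured cells, and the 8 MYC-repressed genes lie far apart on both sides of 0.

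Genes whose pattern over the 12 libraries was most like that of each member were found by the root mean square difference of centred log2 CPM, among 10260 genes with a symbol and a mean of at least 5 CPM. Nearest to MYC were GATAD2A, at 0.0784, and PCSK6, at 0.0828, where MYC itself spanned 1.11 on that scale. Nearest to MXD1 were MLLT11 (0.286) and PPP1R3C (0.364), over a span of 4.11. For MXI1 these were NFIL3 (0.135) and VRK1 (0.146), and for MNT, PROSER3 (0.0895) and MEF2D (0.11). For MXD4 they were NECAB3 (0.0552) and CYB561A3 (0.0599), and for MAX, SNUPN (0.0738) and RAB5B (0.0788). KLF4 was nearest to ZNF330 (0.159) and ISOC1 (0.201), and KLF5 to FHL1 (0.124) and SPOP (0.134). KLF6 was nearest to AZIN1 (0.0901) and HSDL1 (0.0961), and KLF10 to INTS14 (0.0736) and RNF4 (0.0744). No member was among the 2 nearest genes of another, which with 10260 candidates is no result about the members.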

How the data were processed

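The authors deposited 1 table of unnormalized counts by Ensembl identifier for 12 libraries made from total RNA, per the labels' protocols. Per the submitters' processing notes, FastQC, STAR 2.7.9a, featureCounts, R 4.2.1 and DESeq2 1.36.0 were named, on GRCh38. The annotation release and strand setting were not given in the sources used here. Symbols, positions and lengths came from a gene name table and from GENCODE 29 on GRCh38, which held 58366 of the identifiers, and promoter windows from RefSeq (GRCh38.p14).

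Counts were tested as deposited in R 4.3.3 with edgeR 4.0.16: filterByExpr, TMM, 1 model of 4 group means over 12 libraries, robust quasi-likelihood F-test, Benjamini-Hochberg adjustment over 16768 genes, called under 0.05. The biological coefficient of variation was 22.1%. SEs were computed from the fold change and F. CPM and RPKM used TMM-scaled sizes. The method was tested on simulated counts with set changes in lone knockout cells and no GC trend. That test did not cover the GC trends seen here. Within each group no library was a copy of another by a chi-square comparison of counts, and libraries of different groups were not compared this way. Intervals cover the fit only, and fold bounds from the floor of 3 counts do not cover counting error in full. Alternatives were another scaling, DESeq2 1.42.0, no filter, the compared groups alone, a replicate block, GC offsets (loess span 0.5, on deviations from the mean of all 12 libraries), a 2-fold minimum and leaving out each library. The members and lists were chosen with earlier results of these data known, so that no pattern here is independent support. Named were all members, every tested gene of both families, the 2 genes of smallest p per direction in each other list, and the 2 nearest genes of each member. Other genes were named after their values were seen.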

Additional observations from a re-analysis of the deposited data

Results flagged for a closer look

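Only the 10 members and the genes of the lists above were searched for interactions to flag. Among them the co-culture difference of 2 list genes differed between knockout and control cells by the edgeR test of the interaction. Of all genes tested 301 (1.8%) passed it. NOLC1, a nucleolar phosphoprotein among the MYC-activated genes, had an interaction of -1.08 on the log2 scale (adjusted p = 0.0449, up to 0.147 over the settings). CDKN1A, the kinase inhibitor p21, had one of 1.26 (adjusted p = 0.0402, up to 0.13 over the settings). No member passed this test.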

How the results depend on the processing

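Replicate numbers did not pair libraries throughout, as deviations of same-numbered libraries correlated at -0.54 to 0.491. Between the lone groups replicates 1 and 3 correlated at 0.491 and 0.378 and replicate 2 at -0.0242, where differently numbered libraries reached 0.108. GC correlations rose from replicate 1 to replicate 3 in every group except co-cultured knockout. With a replicate block the members called numbered 6, 0, 6, 0 and 0 in the 5 comparisons, as without it. All genes called with the block numbered 9067 between lone and 7781 between co-cultured knockout and control cells. They numbered 1080 between co-cultured and lone knockout cells and 179 for the interaction. Scaling by library size alone moved the median of all genes from 0.0868 to 0.244 between lone knockout and control cells, and between co-cultured and lone knockout cells it gave 989 higher and 431 lower calls in place of 1001 and 906. Requiring a 2-fold change left 3 members between lone and 1 between co-cultured knockout and control cells. Of all 16768 genes it left 6341 in the former, 5259 in the latter and 1059 between co-cultured and lone knockout cells. In that last comparison members called numbered 1 with library size alone, 3 with GC offsets and 2 with GC offsets and replicate block, and 0 to 2 on leaving out single libraries. For the interaction they numbered 2, 1 and 0 to 2 with GC offsets, with both, and on leaving out libraries. Genes called between co-cultured and lone knockout cells numbered 3347 with DESeq2, 3340 with no filter, 664 from the compared groups alone, 4879 with GC offsets, 4151 with GC offsets and replicate block, and 536 (without co-cultured knockout replicate 1) to 5680 (without replicate 3) on leaving out a library. Those for the interaction numbered 877 with DESeq2, 1342 with no filter, 1420 with GC offsets, 894 with both, and 119 (without co-cultured control replicate 2) to 3623 (without co-cultured knockout replicate 3). With no filter 2 genes were called between co-cultured and lone control cells. The cause of these differences was not tested.

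Over the alternatives other than leaving out a library and the 2-fold minimum, the members' fold changes kept direction and call 356 times, gained a call 13 times, lost one 5 times and changed sign 16 times. Changed calls are given beside the members' values, except that those under GC offsets with the block are not repeated. Signs changed only for values that were not called: MXD4 between lone cells was 0.077 with GC offsets and 0.079 with the block as well, MNT between co-cultured and lone knockout cells was -0.103 and -0.086 in the same fits, and MXI1 between co-cultured and lone control cells -0.021 and -0.022. KLF10 between the co-cultured groups was 0.011 with DESeq2 size factors and with DESeq2, 0.026 with library size alone, 0.071 with no filter and 0.015 from the compared groups alone. MYC between co-cultured and lone control cells was 0.015 with library size alone. For the interaction MAX was 0.062 with DESeq2 size factors, 0.063 with DESeq2 and 0.078 with no filter, and MNT was -0.01 with GC offsets. On leaving out 1 library at a time, MXD1 ran from -0.084 to 0.419 and KLF5 from -0.127 to 0.269 between co-cultured and lone knockout cells, and KLF6 from -0.518 to 0.062 and KLF10 from -0.176 to 0.067 between the co-cultured groups. Between co-cultured and lone control cells MYC ran from -0.141 to 0.007, MXD1 from -0.353 to 0.321 and MXI1 from -0.071 to 0.203. For the interaction MAX ran from -0.111 to 0.067, MXD1 from -0.094 to 0.57 and KLF5 from -0.055 to 0.34. List medians printed above were the same with genes at the floor set to their bounds. MXD1 in control libraries, at 0.82 to 2.09 CPM, is the member most limited by depth.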
